A study of Homo sapiens with 3 samples.

Results

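Serine synthesis and folate one-carbon metabolism were followed through the transcripts of 9 enzymes, PHGDH, PSAT1, PSPH, SHMT1, SHMT2, MTHFD1, MTHFD2, MTHFD1L and ALDH1L2, which were chosen as a named list and found by Entrez identifier among the 25702 genes of the deposited counts. The list was chosen with earlier results of these data known, so shares of all genes set beside it are descriptive and test nothing. All 9 were counted well above the filter of 10 counts in at least 1 library, which 12879 genes passed. The cells were Molm13, a human acute myeloid leukemia line with an internal tandem duplication in FLT3, grown in RPMI with serum, a medium that supplies serine, glycine and folic acid. The groups were DMSO, the vehicle, and pyrvinium pamoate at 50 nM or 100 nM, each for 6 h and each with 1 library. Pyrvinium is an anthelmintic that enters mitochondria, and the study asked which transcripts change after exposure to it.

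The libraries held 23165771 counts (DMSO), 22677038 (50 nM) and 24075123 (100 nM), and genes of the mitochondrial chromosome took 5.59%, 4.68% and 5.11% of them. All 8 markers of the myeloid line were present in each library, at 7.59 to 421 TPM (a level per length computed here from counts and exon lengths and scaled to one sum in each library), while 9 markers of T, B, erythroid, epithelial, fibroblast and liver cells reached at most 2.94 TPM, with CD3E and EPCAM at 0 counts in each library. Log2 fold changes are ratios of counts scaled by library size with 0.5 counts added, and their 95% Clopper-Pearson intervals cover counting error only. With 1 library per condition there is no replicate check, and a change in every cell cannot be told apart from a larger change in some of the cells. Both doses were set against the same DMSO library.

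In background terms, cells make serine from the glycolytic intermediate 3-phosphoglycerate in successive steps run by PHGDH, PSAT1 and PSPH. Serine then gives a one-carbon unit to tetrahydrofolate, either in mitochondria through SHMT2, MTHFD2 and MTHFD1L, which pass it on and release it as formate, or in the cytosol through SHMT1. MTHFD1 takes up formate in the cytosol, where the units go into purines, thymidylate and methionine. Genes of serine synthesis and of the mitochondrial branch are known targets of the transcription factor ATF4, and MTHFD2 is often high in proliferating tumor cells.

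All 3 serine synthesis enzymes and all 4 mitochondrial folate enzymes had more transcript at 50 nM than with DMSO, and more again at 100 nM, while SHMT1 and MTHFD1 of the cytosol stayed near their DMSO values. For these 7 genes the counting interval lay above 0 at both steps, which held for 5.66% of the 12879 genes tested. Among the 7087 genes averaging 500 counts or more, that share was 8.65%. The median log2 fold change at 100 nM was 0.59 for serine synthesis, 0.64 for the mitochondrial branch and -0.06 for the cytosolic branch, beside -0.0023 for all genes tested. At 50 nM the same medians were 0.47, 0.43 and 0.02, beside 0.00071 for all genes tested. PSAT1 alone passed 2-fold at 100 nM, 1 of 9. Of genes tested 2.84% were higher by as much, and of the 7087 genes 0.296%. Past 1.5-fold higher were 4 of 9, PSAT1, ALDH1L2, MTHFD2 and PHGDH, beside 7.64% of genes tested, or 1.62% of the 7087 genes averaging 500 counts or more, to which all 9 belong. At 50 nM 0 of 9 passed 2-fold (1.81% of genes tested were higher by as much) and PSAT1 alone passed 1.5-fold (4.8%). Among the 7087 genes these 2 shares were 0.0423% and 0.395%. The counting interval lay above 0 for 8 of 9 at 50 nM, MTHFD1 included, and for 7 of 9 at 100 nM, where 18.6% and 24% of genes tested did so. Of the 7087 genes averaging 500 counts or more, 24.8% and 29.1% did so. Between 50 nM and 100 nM 0 of 9 passed either threshold. Of genes tested 1.16% were higher by 2-fold and 3.49% by 1.5-fold, and of the 7087 genes 0.0141% and 0.113%. The interval between the doses lay above 0 for 7 and below 0 for 1, MTHFD1, against 12.5% and 14.3% of genes tested. Among the 7087 genes, these last shares were 15.9% and 21.6%. Taking both directions, 3.84%, 2.73% and 1.96% of genes tested passed 2-fold at 100 nM, at 50 nM and between the doses, and 11.9%, 7.84% and 5.69% passed 1.5-fold.

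**Figure D1:**
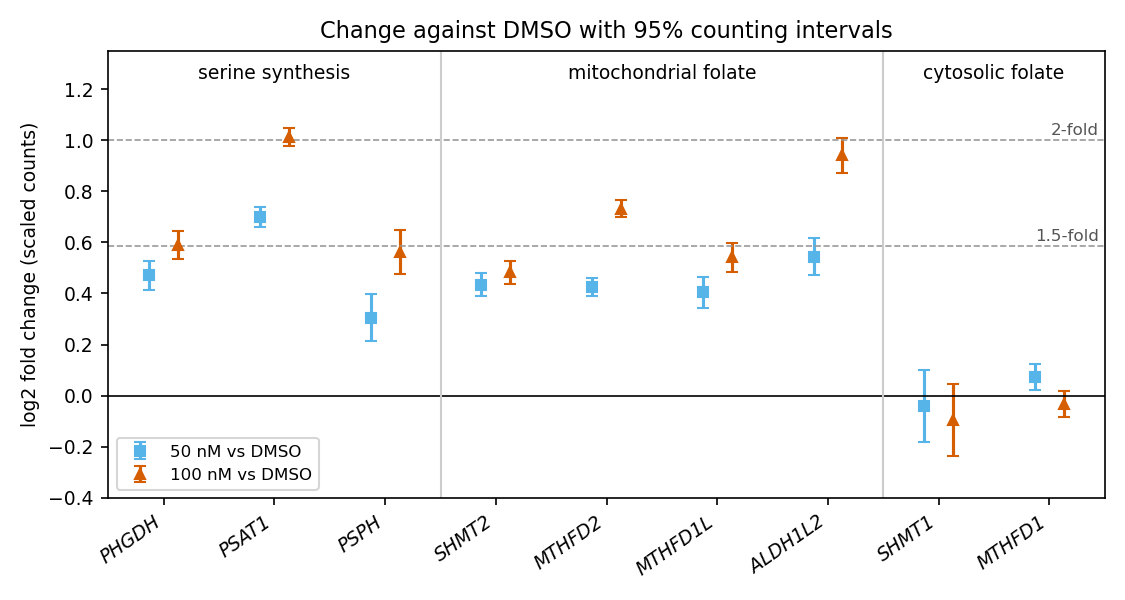
Log2 fold change against DMSO of the 9 enzymes (vertical axis) at 50 nM (squares) and 100 nM (triangles), 1 library each; bars are 95% counting intervals and dashed lines mark 1.5-fold and 2-fold. The 7 serine synthesis and mitochondrial genes lie above 0 at both doses, from 0.48 to 1.01 at 100 nM, and SHMT1 and MTHFD1 lie near 0.

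PSAT1, the aminotransferase of the middle step (Entrez 29968, chromosome 9 of hg19 from 80912059 to 80945009, forward strand), had 9214 counts with DMSO, 14606 at 50 nM and 19340 at 100 nM. It changed most of the 9, with log2 fold changes of 0.70 (interval 0.66 to 0.74) at 50 nM and 1.01 (0.98 to 1.05) at 100 nM. The latter interval spans 2-fold, and 351 of the 12879 genes tested lay higher. PHGDH, the dehydrogenase that commits 3-phosphoglycerate to serine (Entrez 26227, chromosome 1 from 120254419 to 120286849, forward strand), had 4577, 6194 and 7163 counts in the same order. Its log2 fold change was 0.47 (0.42 to 0.53) at 50 nM and 0.59 (0.54 to 0.64) at 100 nM. PSPH, the phosphatase of the last step (Entrez 5723, chromosome 7 from 56078744 to 56119268, reverse strand), had 1774, 2140 and 2726 counts. It was higher by 0.30 (0.21 to 0.40) and 0.56 (0.48 to 0.65) on the log2 scale. At 100 nM PHGDH was just past 1.5-fold, 0.585 on the log2 scale, and PSPH at 1.48-fold and MTHFD1L of the mitochondrial branch at 1.46-fold were just short of it, and all 3 intervals include it.

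In these libraries the steps of serine synthesis did not change by equal amounts beyond counting error. The spread between cultures is unknown, and the intervals leave it out. From DMSO to 100 nM the ratio of PSAT1 to PHGDH counts, which needs no library scaling, grew by 0.42 on the log2 scale (95% exact interval of the odds ratio 0.36 to 0.49), and that of PSAT1 to PSPH by 0.45 (0.36 to 0.54). For PHGDH against PSPH the change of 0.03 had an interval from -0.08 to 0.13. Between these last genes the dose course differed by little more than counting error. At 50 nM PHGDH was ahead of PSPH by 0.17 (0.06 to 0.27), and from 50 nM to 100 nM the ratio fell by 0.14 (interval -0.24 to -0.04). Summed over the 3 enzymes, the level per length went from 614 TPM to 929 and 1122 TPM.

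In the mitochondrial branch, MTHFD2, the NAD-dependent dehydrogenase and cyclohydrolase (Entrez 10797, chromosome 2 from 74425690 to 74442425, forward strand), had 11249 counts with DMSO, 14768 at 50 nM and 19436 at 100 nM. The log2 fold change was 0.43 (0.39 to 0.46) at 50 nM and 0.73 (0.70 to 0.77) at 100 nM. ALDH1L2, which oxidizes the formyl group of 10-formyltetrahydrofolate to CO2 and makes NADPH (Entrez 160428, chromosome 12 from 105413562 to 105478341, reverse strand), had 2615, 3722 and 5221 counts. It changed most of the branch, by 0.54 (0.47 to 0.62) and 0.94 (0.87 to 1.01) on the log2 scale. Both genes gained a large share of their change above 50 nM: the log2 change at 50 nM was 58.3% of that at 100 nM for MTHFD2 and 57.8% for ALDH1L2.

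SHMT2, which moves the one-carbon unit from serine to folate and leaves glycine (Entrez 6472, chromosome 12 from 57623356 to 57628718, forward strand), had 6602, 8713 and 9597 counts. It was higher by 0.43 (0.39 to 0.48) at 50 nM and by 0.48 (0.44 to 0.53) at 100 nM. MTHFD1L, the ligase that releases formate (Entrez 25902, chromosome 6 from 151186691 to 151423023, forward strand), had 4133, 5340 and 6259 counts, with log2 fold changes of 0.40 (0.35 to 0.46) and 0.54 (0.48 to 0.60). SHMT2 had thus reached 90.0% of its 100 nM log2 change at 50 nM, the highest share of the 7 genes. PSPH had the lowest value, 54.2%, close to ALDH1L2 (57.8%) and MTHFD2 (58.3%). No intervals were computed for these shares, so the order of close values is not settled. From 50 nM to 100 nM SHMT2 differed by only 0.05 (0.01 to 0.09), while ALDH1L2 differed by 0.40 (0.34 to 0.46) and MTHFD2 by 0.30 (0.27 to 0.34).

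At 50 nM SHMT2, MTHFD2 and MTHFD1L were close together with ALDH1L2 somewhat ahead, and at 100 nM the 4 mitochondrial genes had spread further. The ratio of MTHFD2 to SHMT2 counts changed by -0.01 at 50 nM (interval -0.07 to 0.05) and by 0.25 at 100 nM (0.19 to 0.31). For MTHFD1L against SHMT2 the changes were -0.03 (-0.11 to 0.04) and 0.06 (-0.01 to 0.13). ALDH1L2 was ahead of SHMT2 by 0.11 (0.02 to 0.20) at 50 nM and by 0.46 (0.38 to 0.54) at 100 nM. At 50 nM it was also ahead of MTHFD2, by 0.12 (0.04 to 0.20), and of MTHFD1L, by 0.14 (0.05 to 0.23). For MTHFD2 against MTHFD1L the change at 50 nM was 0.02 (-0.05 to 0.09). Of the 6 gene pairs within the branch, MTHFD1L against SHMT2 was the single one whose interval included 0 at 100 nM. These intervals cover counting error only, and the pairs share genes and libraries. The share over other gene pairs was not computed.

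The cytosolic enzymes gave other values. SHMT1, the cytosolic hydroxymethyltransferase (Entrez 6470, chromosome 17 from 18231187 to 18266856, reverse strand), had 838, 796 and 817 counts, giving log2 fold changes of -0.04 (-0.18 to 0.10) at 50 nM and -0.09 (-0.23 to 0.05) at 100 nM. MTHFD1, which carries the dehydrogenase, cyclohydrolase and formate ligase activities in a single protein (Entrez 4522, chromosome 14 from 64854759 to 64926725, forward strand), had 6092, 6251 and 6192 counts. Its log2 fold change was 0.07 (0.02 to 0.12) at 50 nM and -0.03 (-0.08 to 0.02) at 100 nM. Neither gene differed from DMSO at 100 nM beyond counting error, and the intervals reach down to -0.23 (SHMT1) and -0.08 (MTHFD1) on the log2 scale. They leave out the spread between cultures, so they do not bound the change. MTHFD1 was lower at 100 nM than at 50 nM, by -0.10 (-0.16 to -0.05).

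The branches were then compared within each library, where library scaling cancels. Of 8 pairs of a mitochondrial and a cytosolic gene, all 8 had a higher count ratio at 100 nM than with DMSO, with an interval above 0. These changes ran from 0.52 (SHMT2 to MTHFD1) to 1.03 (ALDH1L2 to SHMT1) on the log2 scale. At 50 nM again all 8 intervals lay above 0, with changes from 0.33 to 0.58. From 50 nM to 100 nM 7 of 8 did, and the exception was SHMT2 to SHMT1, at 0.10 (-0.05 to 0.25). The intervals are those of single pairs, and the pairs share genes and libraries. They restate the single-gene changes given above, and the share over other gene pairs was not computed. At 100 nM the counting interval of a single gene lay above 0 for 29.1% and below 0 for 35.1% of the 7087 genes averaging 500 counts or more.

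**Figure D2:**
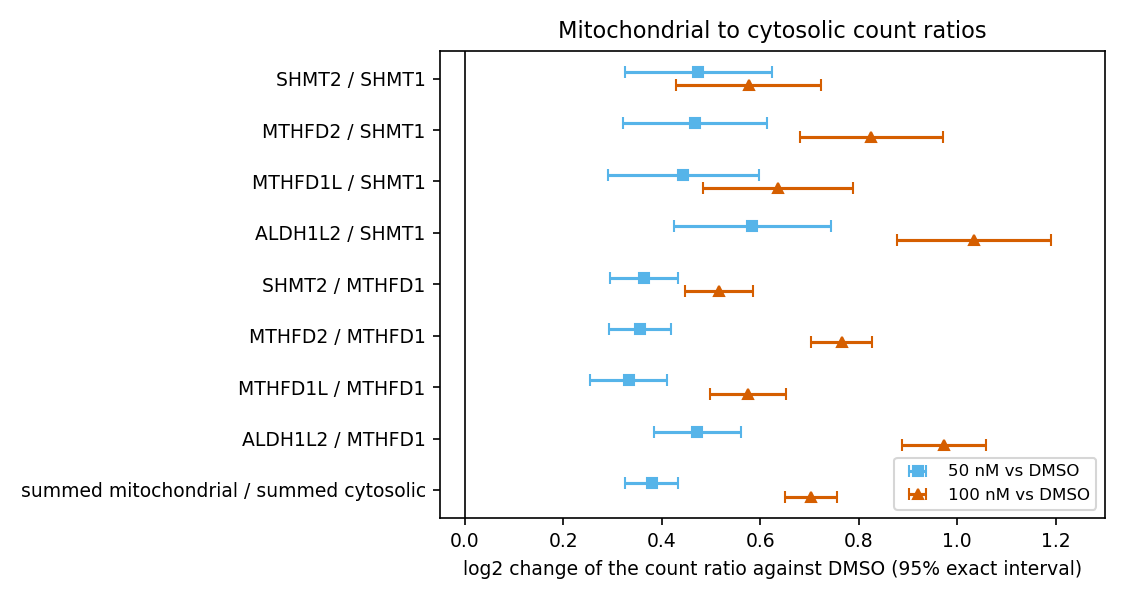
Log2 change against DMSO of the ratio of mitochondrial to cytosolic counts (horizontal axis) for the 8 gene pairs and for the summed branches, at 50 nM (squares) and 100 nM (triangles), with 95% exact intervals. Every interval lies above 0, and the ratio of the summed branches changed by 0.38 at 50 nM and 0.70 at 100 nM.

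For the enzymes that run the same reaction in both compartments, the share of the mitochondrial transcript was also computed. How far a share moves depends on where it starts, so shares of different pairs do not compare the size of the shift. From DMSO to 100 nM the ratio of SHMT2 to SHMT1 and that of MTHFD1L to MTHFD1 both grew 1.49-fold. SHMT2 took 88.7% of the SHMT1 and SHMT2 counts with DMSO (95% exact interval 88.0 to 89.4), 91.6% (91.1 to 92.2) at the lower dose and 92.2% (91.6 to 92.7) at the higher. The intervals of the treated libraries overlap each other but not that of DMSO. MTHFD2 took 64.9% of the counts on MTHFD2 and MTHFD1 with DMSO (64.2 to 65.6), 70.3% (69.6 to 70.9) at the lower dose and 75.8% (75.3 to 76.4) at the higher. MTHFD1L, set against the same cytosolic gene, went from 40.4% (39.5 to 41.4) to 46.1% (45.2 to 47.0) and 50.3% (49.4 to 51.2). For both of these pairs the intervals of the 3 libraries did not overlap. All these intervals cover counting error only and leave out the spread between cultures. The share of other gene pairs that would differ in this way was not computed. Over both branches, the mitochondrial share of counts was 78.0%, 82.2% and 85.3% in the order of dose.

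Compared per length, the mitochondrial branch was already the more abundant with DMSO, at 732 TPM summed over 4 genes against 176 TPM over 2. At 100 nM these sums were 1172 and 174 TPM. MTHFD2 had the highest level of the 9 with DMSO, 413 TPM, followed by PSAT1 (353), SHMT2 (194), PHGDH (190.4), MTHFD1 (148), MTHFD1L (96.3), PSPH (70.2), ALDH1L2 (29.1) and SHMT1 (27.9 TPM). The neighbors SHMT2 and PHGDH had overlapping Poisson intervals (189 to 199 and 185 to 196 TPM), as did ALDH1L2 and SHMT1 (28.0 to 30.2 and 26.0 to 29.8 TPM), and the spread between cultures is unknown. With pyrvinium PSAT1 stood above MTHFD2, at 576 against 558 TPM at 50 nM and 725 against 697 TPM at 100 nM. ALDH1L2 left SHMT1 behind, at 56.8 against 26.6 TPM at 100 nM.

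**Figure D3:**
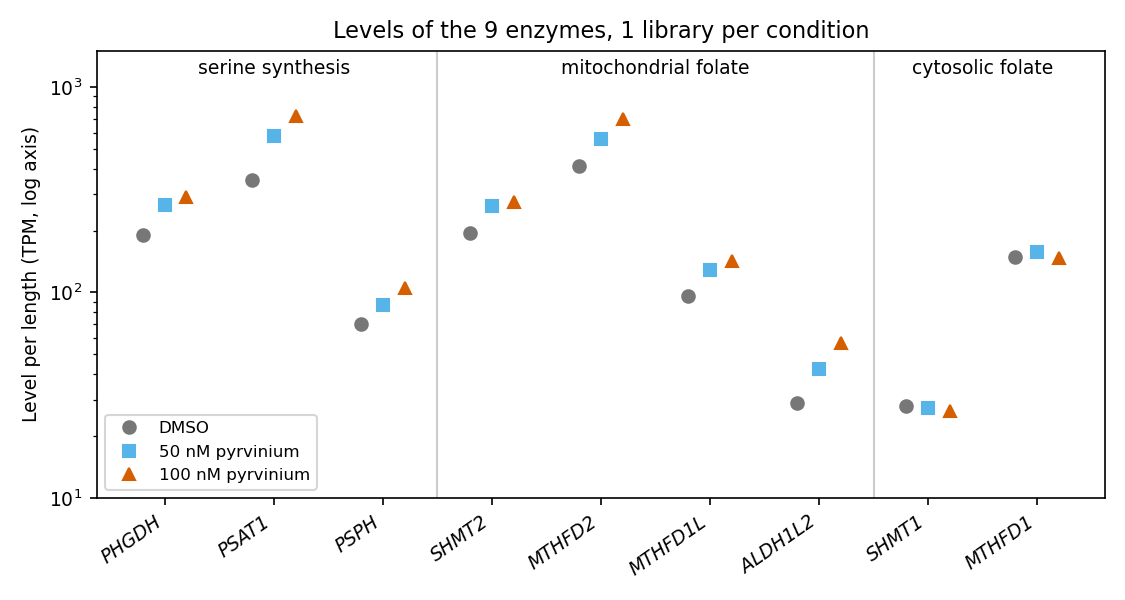
Level of each enzyme in TPM (vertical log axis) in the DMSO (circles), 50 nM (squares) and 100 nM (triangles) libraries, 1 point per library. Levels climb with dose for the first 7 genes, to 725 TPM for PSAT1 and 697 TPM for MTHFD2 at 100 nM, while SHMT1 and MTHFD1 keep theirs.

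Reads of some members may be shared with other loci. GENCODE names 14 pseudogene copies of the 9 genes, 7 of MTHFD2, 4 of PSAT1 and 1 each of PSPH, SHMT1 and MTHFD1, and none of these copies is a gene of the deposited counts. How reads that align to several places were treated is not given in the sources used here, so the values of these 5 genes are uncertain to that extent. SHMT1 shares 184 exonic bases, 7.30% of its length, with SMCR8 on the opposite strand, and SHMT2 shares 33 bases, 1.16%, with COXFA4L2. The strand setting of the counting is not given either. SMCR8 had 1781, 1676 and 1733 counts, and COXFA4L2 81, 111 and 135, and their part in the counts of the members was not tested.

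Since the serine synthesis and mitochondrial genes moved together, their promoters were read from RefSeq windows on GRCh38.p14 that run from 250 bases before to 50 bases after a transcript start. Windows were found for 6 of the 9 genes, and PSPH, SHMT2 and ALDH1L2 had no entry. The windows of PSAT1 and MTHFD2, the genes with the highest levels, of MTHFD1L, and of MTHFD1, its cytosolic relative, are shown 5′ to 3′. They lie at chr9:78296875-78297174, chr2:74198365-74198664, chr6:150866236-150866535 and chr14:64388103-64388402, all on the forward strand. Capitals mark TGATGNAA, the core of the element bound by ATF4 with a C/EBP partner, searched on both strands.
PSAT1: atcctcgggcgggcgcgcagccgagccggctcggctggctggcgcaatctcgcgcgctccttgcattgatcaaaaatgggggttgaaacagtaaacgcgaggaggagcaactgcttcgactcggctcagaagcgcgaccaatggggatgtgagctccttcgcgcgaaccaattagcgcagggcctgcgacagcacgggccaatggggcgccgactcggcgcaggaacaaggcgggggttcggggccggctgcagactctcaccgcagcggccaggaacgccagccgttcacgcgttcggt
MTHFD2: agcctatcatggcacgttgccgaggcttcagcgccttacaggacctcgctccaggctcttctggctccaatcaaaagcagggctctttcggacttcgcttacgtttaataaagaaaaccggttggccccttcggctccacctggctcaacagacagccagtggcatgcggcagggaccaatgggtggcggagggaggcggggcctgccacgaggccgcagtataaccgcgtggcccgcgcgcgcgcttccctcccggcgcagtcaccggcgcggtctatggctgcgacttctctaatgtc
MTHFD1L: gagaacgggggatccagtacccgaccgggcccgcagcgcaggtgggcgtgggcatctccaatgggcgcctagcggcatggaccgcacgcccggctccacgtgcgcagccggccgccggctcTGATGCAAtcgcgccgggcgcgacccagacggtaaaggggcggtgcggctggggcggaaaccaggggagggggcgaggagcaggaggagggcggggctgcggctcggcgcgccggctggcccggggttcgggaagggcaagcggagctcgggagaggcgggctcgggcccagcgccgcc
MTHFD1: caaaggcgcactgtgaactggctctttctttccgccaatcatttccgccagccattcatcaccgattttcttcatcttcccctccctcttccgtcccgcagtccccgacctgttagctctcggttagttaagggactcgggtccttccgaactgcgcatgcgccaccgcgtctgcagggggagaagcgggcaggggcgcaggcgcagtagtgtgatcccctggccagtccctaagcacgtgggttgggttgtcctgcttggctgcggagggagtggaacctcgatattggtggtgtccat

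MTHFD1L was the 1 gene of 6 with a match, and 3 of its 4 windows, which overlap each other, hold that same stretch at 150866357 to 150866364 of chromosome 6. In the window shown, 121 bases separate it from the transcript start, and in another window 82 bases do. In the remaining window with the match it lies past the transcript start. PHGDH and SHMT1 had no match in this window either. Of all 35116 windows of this length 3.62% hold the letters, and of 27305 genes 4.46%. The G and C content was 66% in PSAT1, 62.7% in MTHFD2, 76.7% in the window shown of MTHFD1L and 52.7% in PHGDH, with 37, 27, 40 and 15 CpG dinucleotides. The cytosolic genes lay within that range, at 68% in SHMT1 and 59.7% in MTHFD1, with 23 and 20. Elements outside these windows were not searched.

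Around the 9 enzymes, the remaining pathway was read from 45 genes in 6 lists, of which 35 passed the count filter. Past 1.5-fold at 100 nM was 1 of the 35, the serine dehydratase SDS, with only 4, 12 and 13 counts, and 0 were lower by as much, beside 7.64% higher and 4.24% lower of all genes tested. Among the 29 list genes averaging 100 counts or more, 0 passed 1.5-fold at 100 nM in either direction. The counting interval lay above 0 for 11 of the 35 and below 0 for 9, against 24% and 25.3% of genes tested, and the median log2 fold change was 0.10. At 50 nM SDS and SRR were past 1.5-fold higher and GNMT lower (4.8% and 3.04% of genes tested), none with more than 128 counts. SRR, the serine racemase, had 82, 128 and 104 counts, and GNMT, a glycine methyltransferase, 28, 18 and 26. The other 10 genes had at most 5 counts in any library, and 2 of them, FOLR1 and BHMT2, had 0 in each, which allows a share of up to 1.32e-05% of a library (3 counts).

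The lists also hold carriers of folate and serine. For the single list genes that follow, the values are log2 fold changes at 100 nM against DMSO with their counting intervals. SFXN1, a serine carrier of the inner mitochondrial membrane, had 2620, 2171 and 2067 counts in the order of dose. It had the lowest log2 fold change of the 35, -0.40 (-0.48 to -0.32), and its relatives SFXN2 and SFXN3 were at 0.39 (0.03 to 0.75) and -0.02 (-0.12 to 0.07). SLC25A32, the mitochondrial folate carrier, was at -0.11 (-0.16 to -0.05), and SLC19A1, the reduced folate carrier of the plasma membrane, at -0.12 (-0.21 to -0.03). FPGS, which adds glutamates to folate and so keeps it in the cell, was at 0.10 (0.01 to 0.20), and GGH, which removes them, at -0.14 (-0.24 to -0.05). Of the 4 genes tested for folate uptake and retention, 1 had an interval above 0 and 3 below, with a median of -0.11. Of all genes tested 24% lay above 0 and 25.3% below, and of the 7087 genes averaging 500 counts or more 29.1% and 35.1%. The same shares stand beside the interval counts of the lists that follow, which are too short to be read as results about a list.

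Among the genes of folate reduction and interconversion, close relatives of the members were scarce. ALDH1L1, the cytosolic form of ALDH1L2, had 3, 0 and 1 counts, and MTHFD2L, the second mitochondrial dehydrogenase, 83, 71 and 95. The log2 fold change of MTHFD2L at 100 nM was 0.14 with a wide interval (-0.30 to 0.58). Of the 7 genes tested in that list, 2 had an interval above 0 and 2 below, with a median of -0.04. TYMS, thymidylate synthase, was at -0.28 (-0.32 to -0.23). The purine enzymes that use formyl folate, GART and ATIC, were at 0.12 (0.07 to 0.16) and 0.02 (-0.04 to 0.08), so that of the 3 nucleotide synthesis genes 1 interval lay above 0 and 1 below. MTFMT, which formylates the mitochondrial initiator tRNA with the same cofactor, was at -0.35 (-0.55 to -0.14).

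In the methionine cycle, MTR, methionine synthase, was at 0.35 (0.28 to 0.42) and MAT2A, which makes S-adenosylmethionine, at -0.06 (-0.09 to -0.03). Of 8 genes tested there, 4 had an interval above 0 and 2 below, with a median of 0.13. Of the glycine cleavage system, GLDC, its decarboxylase, had 2, 3 and 4 counts. GCSH, the carrier protein of the system, was at -0.08 (-0.23 to 0.08), and of the 5 genes tested for mitochondrial glycine and choline steps 1 interval lay above 0 and 0 below, with a median of 0.15. Among the users of serine, SPTLC1, a subunit of the enzyme that starts sphingolipid synthesis, was at 0.39 (0.30 to 0.49) and its partner SPTLC2 at 0.04 (-0.06 to 0.14). Of the 8 genes of serine use and its mitochondrial carriers, 2 had an interval above 0 and 1 below, with a median of 0.34 that includes SDS and other genes of few counts.

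**Figure D4:**
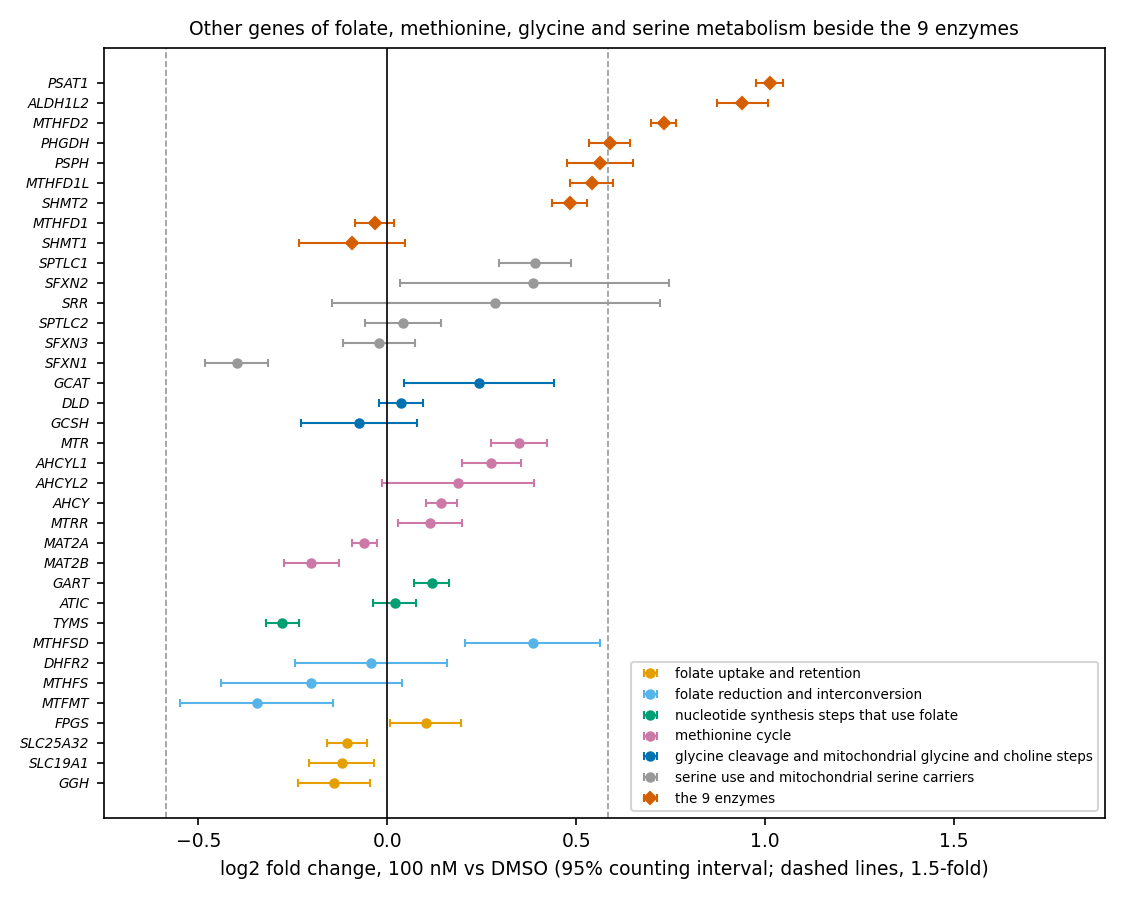
Log2 fold change at 100 nM against DMSO (horizontal axis) of the 9 enzymes (diamonds, top) and of 27 other pathway genes averaging 100 counts or more (circles, colored by list), with 95% counting intervals; dashed lines mark 1.5-fold. None of the 27 lies beyond the dashed lines, and 4 of the 9 enzymes do.

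Genes with the most similar course were sought among 7078 others averaging 500 counts or more, by the distance between their pairs of log2 fold changes at 50 nM and 100 nM, which rest on 3 libraries. Nearest to the median of serine synthesis (0.47 and 0.59) were CZIB (0.49 and 0.59, distance 0.019), ANAPC16 (0.46 and 0.61, distance 0.022), a subunit of the anaphase-promoting complex, and OMA1 (0.47 and 0.57, distance 0.024), a protease of the inner mitochondrial membrane. Nearest to the median of the mitochondrial branch (0.43 and 0.64) were the zinc transporter SLC39A10 (0.43 and 0.63, distance 0.0088), SLC1A4 (0.45 and 0.64, distance 0.019), a transporter of serine and alanine, and the calcium channel ITPR1 (0.42 and 0.66, distance 0.023). ATF4 itself had 12788, 16646 and 18669 counts, with log2 fold changes of 0.41 (0.38 to 0.45) at 50 nM and 0.49 (0.46 to 0.52) at 100 nM.

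**Figure D5:**
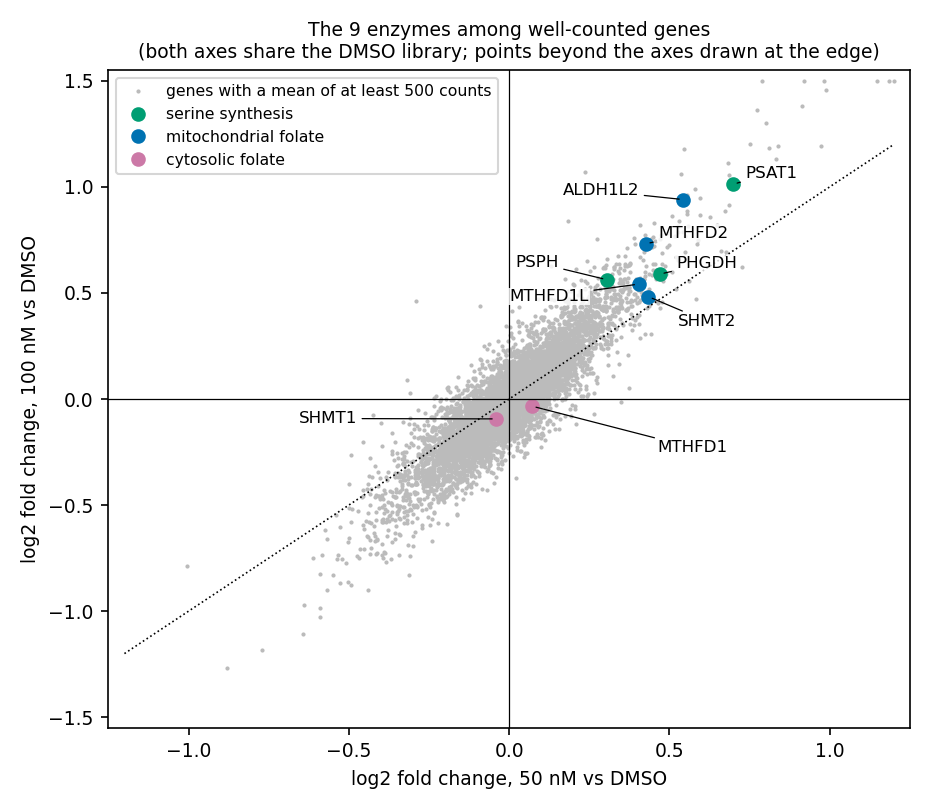
Log2 fold change at 100 nM (vertical axis) against that at 50 nM (horizontal axis) for the 9 enzymes (large points) and the 7087 genes averaging 500 counts or more (grey), the dotted line marking equal values; both axes share the DMSO library, and points beyond the axes are drawn at the edge. The 7 serine synthesis and mitochondrial genes lie at the upper right, above the dotted line, and SHMT1 and MTHFD1 lie within the cloud near 0.

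The size of these differences can be set against an assumed spread between cultures, since none was measured. In edgeR's exact test with that spread set to 0.1 (as a coefficient of variation) and Benjamini-Hochberg adjustment over all genes tested, PSAT1 (adjusted p = 0.00025), ALDH1L2 (0.0013) and MTHFD2 (0.027) passed at 100 nM, PHGDH (0.13) and the other 5 did not, and at 50 nM 0 of 9 passed. With 0.2 the exact test called 0 of 9 after adjustment, and the unadjusted p at 100 nM was 0.015 for PSAT1, 0.023 for ALDH1L2 and at least 0.076 for the others.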

How the data were processed

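RNA of 3 cultures of Molm13 cells was sequenced, 1 library per condition. Paired reads of stranded mRNA libraries were mapped to hg19 by the authors (Rsubread), who deposited raw counts over the exons of each Entrez gene. The labels' protocol gives the higher dose in M, and the title and design text in nM, which was used. A table of the authors' own EBSeq comparisons (posterior probabilities and fold changes) was not used. Of 25702 identifiers, 23696 had a RefSeq symbol.

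Counts were scaled with edgeR 4.0.16 (TMM, R 4.3.3), keeping 12879 genes that reached 10 counts in any library. Called means past 2-fold or 1.5-fold, with no test between conditions. Intervals (95%, scipy 1.17.1) cover counting error only, as do Poisson intervals of levels and exact odds ratio intervals of gene pairs. Alternatives were scaling by DESeq2 1.42.0, by total counts or by TMM without mitochondrial genes, 5 counts added, other count filters, summed branches and an exact test (edgeR) at spreads of 0.1, 0.2 and 0.4. Intervals were tested on simulated Poisson counts without spread between cultures, which cannot show how they hold where such spread exists. The members and lists were chosen with earlier results of these data known. Named are all 9 members, list genes past 1.5-fold at 100 nM with a mean of at least 100 counts, 4 preset partners and carriers (ALDH1L1, MTHFD2L, SLC25A32, SFXN1), pseudogene copies, ATF4 and the 3 genes nearest to each of 2 median profiles. The other list genes and both overlapping genes were picked with their values known. Of the list genes, 2 are counted in the totals but not reported here singly.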

Additional observations from a re-analysis of the deposited data

How the results depend on the processing

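DESeq2 size factors, total counts, TMM without mitochondrial genes and 5 counts added moved the log2 fold change of each of the 9 genes by at most 0.005, and under these settings the number of members past each fold was the same, as was the difference between the branch medians to 2 decimals. Library scaling cancels in that difference, so of these settings only the 5 added counts could move it. The number of list genes past 1.5-fold at 50 nM was 3, and 2 with 5 counts added. Summed counts in place of branch medians gave a difference between the branches of 0.70 at 100 nM, 0.38 at 50 nM and 0.32 between the doses, beside 0.70, 0.41 and 0.30. The number of members called depended on the spread assumed between cultures. With edgeR's exact test and an assumed coefficient of variation of 0.1, 1 of 9 at 2-fold and 3 of 9 at 1.5-fold were still called at 100 nM, and at 50 nM the count at 1.5-fold went from 1 to 0. With 0.2 or 0.4, 0 of 9 were called at either fold and either dose. These libraries cannot give that spread.

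The background depends on the count filter. At 2-fold, 495 of all genes tested differed at 100 nM, 2612 with at least 1 count, 69 with a mean of at least 100 counts and 25 with a mean of at least 500, a setting added after the data were examined. At 50 nM these numbers were 351, 2452, 20 and 4, and between the doses 252, 2394, 6 and 1. At 1.5-fold and the means of 100 and 500, 1530 became 460 and 187 at 100 nM, 1010 became 136 and 37 at 50 nM, and 733 became 48 and 8 between the doses. Genes of few counts made up the difference by construction. No paired analysis was possible because each condition has a single library, and no library could be left out for the same reason.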
